A study of Mus musculus with 3 samples.

Results

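Sperm carry a small set of surface proteins with which they bind the egg and fuse with it. The genes described here are 9 genes for such proteins or for relatives of them: Izumo1, Izumo2, Izumo3, Izumo4, Spaca4, Spaca6, Tmem95, Dcst1 and Dcst2. They were taken by symbol from the 32285 genes of the count tables, and each symbol matched 1 row. Single-cell RNA libraries were made from dissociated testes of adult mice, all with the strain label C57BL/6N. There were 2 wildtype libraries of 1 mouse each, called wildtype replicate 1 and wildtype replicate 2, and 1 knockout library, in which cells from 2 conditional Tex10 knockout animals were pooled. Neither the Cre line nor which exons are deleted stands in the labels, and with 1 knockout library no test between genotypes was possible. Where 3 values stand together, the first is that of wildtype replicate 1, the next that of wildtype replicate 2 and the last that of the knockout library.

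Fertilization ends with the binding of the sperm head to the egg's plasma membrane and the merging of both membranes. IZUMO1 on the sperm binds the receptor JUNO on the egg, and SPACA6, TMEM95, DCST1 and DCST2 are further sperm membrane proteins needed for fusion. Sperm make almost no new RNA, so the messenger RNAs for these proteins are made earlier, in spermatocytes and in the haploid spermatids that follow meiosis. Many sperm surface proteins are first stored in the acrosome, the secretory vesicle of the sperm head.

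The 9 genes lie on 6 autosomes (GENCODE M21, GRCm38, the assembly also called mm10), and all are protein coding. Izumo1 (chr7:45621811-45628823, plus strand) and Spaca4 (chr7:45725107-45725813, minus strand, 1 exon) lie 96284 bases apart, and Izumo2 lies on the same chromosome (chr7:44708742-44719844, plus strand). Dcst1 (chr3:89350219-89365253, minus strand) and Dcst2 (chr3:89361975-89377549, plus strand) are read away from each other, and their annotated gene bodies overlap by 3279 bases without sharing an exonic base. Izumo3 (chr4:92144329-92147234, minus strand), Izumo4 (chr10:80702184-80705373, plus strand), Tmem95 (chr11:69876684-69878018, minus strand) and Spaca6 (chr17:17827158-17843009, plus strand) each lie alone among the members. In 3′ libraries reads come from the last bases of a transcript. The last 500 exonic bases of Izumo1 are also annotated as exon of Rasip1 on the same strand, and 470 of 940 words of 31 bases in the last 500 bases of its transcripts occur in Rasip1 transcripts as well. Reads from there may be assigned to neither or either gene, so the level of Izumo1 is uncertain. For Izumo2, Izumo3, Izumo4, Spaca4, Tmem95 and Dcst2, no word of 31 bases in the last 500 bases of the transcripts occurred in a transcript of another gene. The share of such words was 1.76% for Spaca6 and 5.01% for Dcst1.

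RefSeq promoter sequence (GRCm38.p6) was at hand for 8 of the 9 genes, all but Izumo4. Shown are the bases between the start sites of Dcst1 and Dcst2, which both genes share, and the 150 bases upstream of the start sites of Izumo1, Izumo2 and Tmem95, shown because Izumo1 alone holds the motif described next, Izumo2 is the gene with the longest window of expression, and Tmem95 has the largest difference between genotypes. Capitals mark a match to TGACGTCA, the cyclic AMP response element bound by CREM, a master regulator of spermatid genes, or to the CCAAT box.
Dcst1 to Dcst2, plus strand of chr3:89365254-89365318: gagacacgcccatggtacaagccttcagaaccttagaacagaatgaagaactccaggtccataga
Izumo1, plus strand of chr7:45621661-45621810: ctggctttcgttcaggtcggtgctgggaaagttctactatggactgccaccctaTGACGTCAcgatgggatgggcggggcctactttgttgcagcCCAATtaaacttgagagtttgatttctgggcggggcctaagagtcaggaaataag
Izumo2, plus strand of chr7:44708580-44708729: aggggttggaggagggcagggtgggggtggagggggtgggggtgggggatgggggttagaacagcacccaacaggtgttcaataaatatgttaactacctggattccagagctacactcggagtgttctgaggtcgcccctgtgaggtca
Tmem95, minus strand of chr11:69878056-69878205: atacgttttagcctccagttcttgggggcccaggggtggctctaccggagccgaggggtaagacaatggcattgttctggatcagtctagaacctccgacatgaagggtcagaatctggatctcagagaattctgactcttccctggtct

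The RefSeq start sites of Dcst1 and Dcst2 are 66 bases apart, while the GENCODE model of Dcst2 starts farther upstream, at position 89361975, inside Dcst1. In the 250 bases upstream of the start site, both strands searched, the letters TGACGTCA stood in 1 of the 8 members, Izumo1, and in 1.55% of 32851 RefSeq promoters. The shorter letters TGACG, which TGACGTCA contains, stood in Izumo1 and Tmem95 and in 17.8% of promoters. CCAAT stood in Izumo1, Izumo3 and Spaca4 and in 33.8% of promoters, and TATAAA stood in none of the 8 and in 12.4% of promoters. A match of letters describes the sequence and shows no binding.

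The files held 9967, 10153 and 12918 barcodes with 93418341, 96001773 and 147783171 UMIs. Per barcode the median was 2104, 3041 and 2828 UMIs. A UMI, or unique molecular identifier, marks 1 captured RNA molecule. Clusters of barcodes with few UMIs made up 54.5%, 39.8% and 64.4% of the kept barcodes and were held apart. Each pair of libraries shared 27 to 30 barcodes, at most 0.301% of a library. The targeted gene, Tex10, stood at 143.1 and 124.6 UMIs per 1000000 UMIs (CPM) in wildtype spermatogonia and at 131.1 in the knockout library, and at 22.76 and 23.41 against 15.78 CPM in round spermatids, so its transcript was still counted in the knockout library. The labels do not say whether the counted 3′ end lies in the deleted part.

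Germ cells were ordered from spermatogonia to elongating spermatids by a diffusion pseudotime that used neither the 9 genes nor the other listed genes of sperm-egg interaction. The axis held 11417 cells, and a position on it is a percent of these cells passed. It was divided into 20 bins of 5% each. Spermatogonia made up most of bin 1, early spermatocytes of bins 2 to 4, late spermatocytes of bins 5 to 8, round spermatids of bins 9 to 12 and elongating spermatids of the rest. These names are marker-based ("spermatid-like") and were rebuilt here. The last cluster of the late spermatocytes, which fills most of bin 8, had none of that class's markers among its 10 leading genes and already held the spermatid marker Acrv1, so the border between the last spermatocytes and the first round spermatids is not sharp. The 3 round spermatid clusters likewise had none of their class's markers among their 10 leading genes, though 10 to 12 of these markers were detected in each. Round spermatids numbered 559, 905 and 711 cells in the 3 libraries.

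All 9 messenger RNAs were low in spermatogonia and early spermatocytes and rose to a maximum in late spermatocytes or spermatids, and they did so in an order that was nearly the same in every library. The onset of a gene is the position at which its level first reached 20% of its own highest bin and stayed there for 2 successive bins. Between bin centres, which lie 5% apart, the level was taken to change along a straight line. Izumo4 came first, in late spermatocytes, at 23.27% ± 0.361 (SD, n = 2 wildtype libraries). Its position depended on the setting. It was 26.55% with 40 bins, 19.08% with 10 bins and 13.93% with the onset at 10% of the highest bin, the last 2 within the early spermatocyte bins. The 8 later genes started between 34.17% and 37.94%, at the passage from the last spermatocytes to the first round spermatids. These onsets all lie between the centres of bins 7 (32.5%) and 9 (42.5%), and they differ by less than a bin. Their order mostly ranks the share of its highest level that a gene already held in bin 8. In wildtype replicate 1 this was 25.28 of 45.22 CPM for Dcst2 and 78.29 of 244.7 CPM for Izumo1. Separate start points within the 8 genes are thus not resolved. The range of these onsets depended on scaling and threshold. With median-of-ratios size factors in place of CPM it was 34.55% to 44.69%. With the onset at 10% of the highest bin it was 19.4% to 35.24%, but all of the 8 except Dcst1 started at 33.14% or later. The plot of the levels along the axis shows how closely the 3 libraries follow each other.

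**Figure D1:**
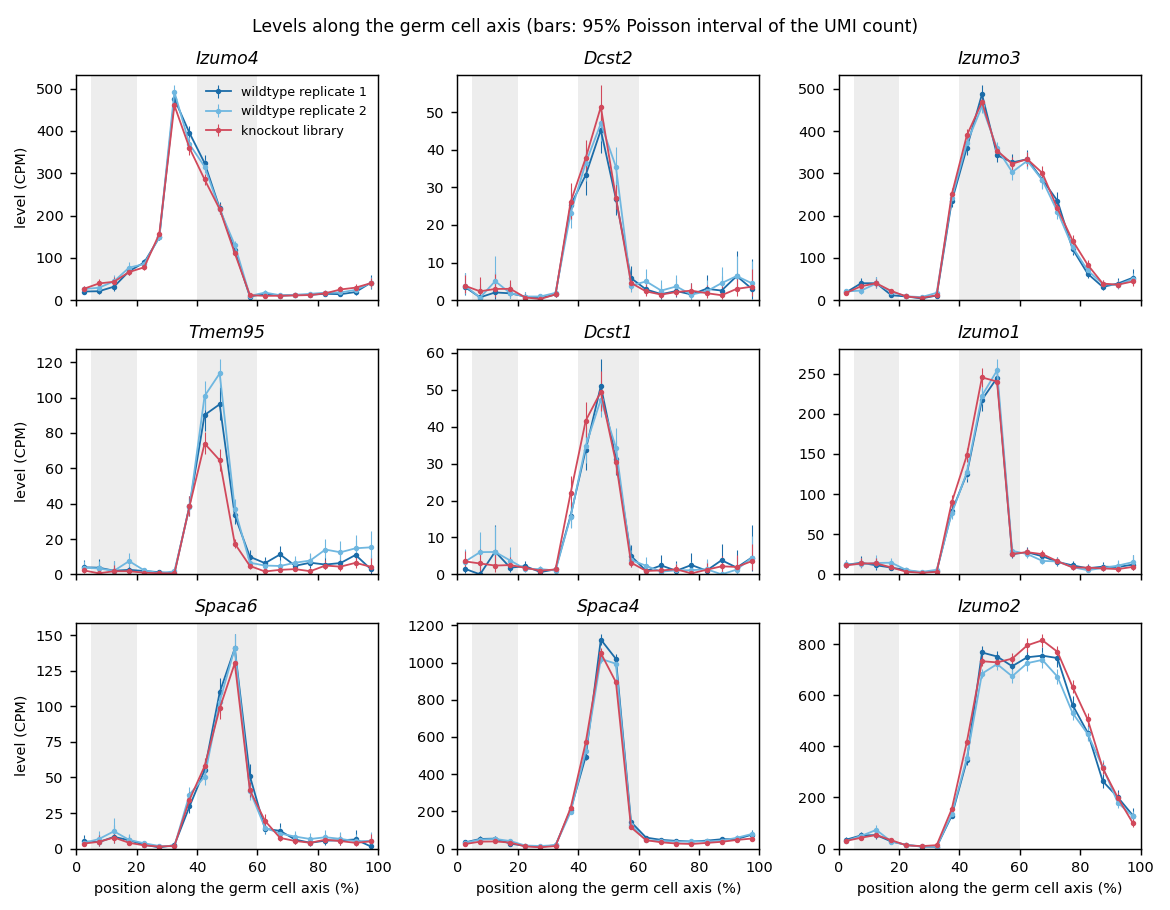
Level of each gene (y axis, CPM from 0) along the germ cell axis (x axis, percent of ordered germ cells) in the wildtype libraries (blue) and the knockout library (red); points are bins, bars are 95% Poisson intervals of the UMI count, and grey bands mark early spermatocyte and round spermatid bins. Izumo4 is highest in bin 7, before the other genes rise, and Izumo2 and Izumo3 stay high after the others have fallen.

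Izumo4 encodes an IZUMO family protein whose role is little known. It reached its highest bin, bin 7 (30% to 35%), at 475.6 CPM in wildtype replicate 1, 492.0 in wildtype replicate 2 and 460.1 in the knockout library. Its onset lay at 23.41% in the knockout library. The other 8 genes were still low there. In the same bin Tmem95 stood at 0.4799, 1.686 and 0.5327 CPM and Dcst2 at 1.52, 1.945 and 1.531 CPM.

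The genes with the lowest levels were Dcst2, which started at 34.17% ± 0.127, and Dcst1, which started at 35.47% ± 0.106, after Izumo3 and Tmem95. They encode multi-pass membrane proteins of the DC-STAMP family that sperm need after they have bound the egg. Dcst2 was highest in bin 10 (45% to 50%), at 45.22, 46.97 and 51.39 CPM in the 3 libraries, from 195, 352 and 343 UMIs. Dcst1 was highest in the same bin, at 51.02, 47.37 and 49.45 CPM, from 220, 355 and 330 UMIs. The levels of this gene pair overlapped between libraries in that bin. In bin 8, however, Dcst2 had already reached 25.28, 23.1 and 26.14 CPM, above Dcst1 with 15.92, 15.64 and 22.04 CPM.

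Izumo3, required for a normally shaped acrosome, started at 34.30% ± 0.198. It rose to 487.0, 458.1 and 468.2 CPM in bin 10 in the 3 libraries. Tmem95, which binds the egg membrane, started at 35.18% ± 0.325. Its highest bin held 96.24 CPM in wildtype replicate 1, 113.7 in wildtype replicate 2 and 74.02 in the knockout library, so that the knockout library was the lowest of the 3. Izumo1, the ligand of JUNO, started at 35.62% ± 0.127 and reached 244.7, 254.0 and 245.3 CPM.

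Last came Spaca6 at 36.69% ± 0.764, Spaca4 at 37.71% ± 0.113 and Izumo2 at 37.94% ± 0.191. Spaca6 encodes an IZUMO1-like membrane protein needed for fusion, and Spaca4 a GPI-anchored protein of the Ly6 family that takes part in sperm binding to the egg coat in mice. Spaca6 rose to 140.8, 140.9 and 130.4 CPM, and Spaca4 to 1124.0, 1020.0 and 1051.0 CPM, in the 3 libraries. Izumo2, another gene of the IZUMO family, rose to 766.9, 737.9 and 814.7 CPM. The 3′ assay counts a transcript once whatever its length, so these levels carry no length scale, but the share of molecules captured may differ between genes.

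Of the 36 pairs of genes, 33 had the same order of onset in all 3 libraries. The neighbours whose order differed between libraries were Dcst2 and Izumo3 (gaps of 0.36, -0.1 and -0.06 percentage points in the 3 libraries), Tmem95 and Dcst1 (0.59, -0.02 and 0.19), and Dcst1 and Izumo1 (-0.01, 0.32 and 0.58). The gap between Izumo4 and Dcst2 was 11.1, 10.7 and 10.9 percentage points. Gaps between neighbours among the 8 later genes were at most 1.7 points. They are below the bin width of 5% and rest on the straight line between bin centres. With 40 bins Dcst2 (34.46%) was still the first and Izumo2 (38.14%) the last of the 8. Spaca4 preceded Izumo2 by only 0.28, 0.17 and 0.36 points, close to the SD of each onset between wildtype libraries (0.113 and 0.191), so this order rests on its direction in each library. The 13 settings listed include the main setting and the use of wildtype libraries only, which gives the same onsets by construction. Leaving out a wildtype library gives the onsets of the other wildtype library alone. Under all 13 settings, Izumo4 was first and Spaca6, Spaca4 and Izumo2 were the last 3. Dcst2 was second under 11 of them. With the onset set at 10% of the highest bin Dcst1 came second, at 19.4%, a mean of 2 unlike values. In wildtype replicate 2 bins 2 and 3 already passed that level, at 6.017 and 6.071 CPM from 9 and 6 UMIs. In wildtype replicate 1 only bin 3 passed it before bin 8, so the onset there lay much later. Without wildtype replicate 1 Izumo3 came second.

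**Figure D2:**
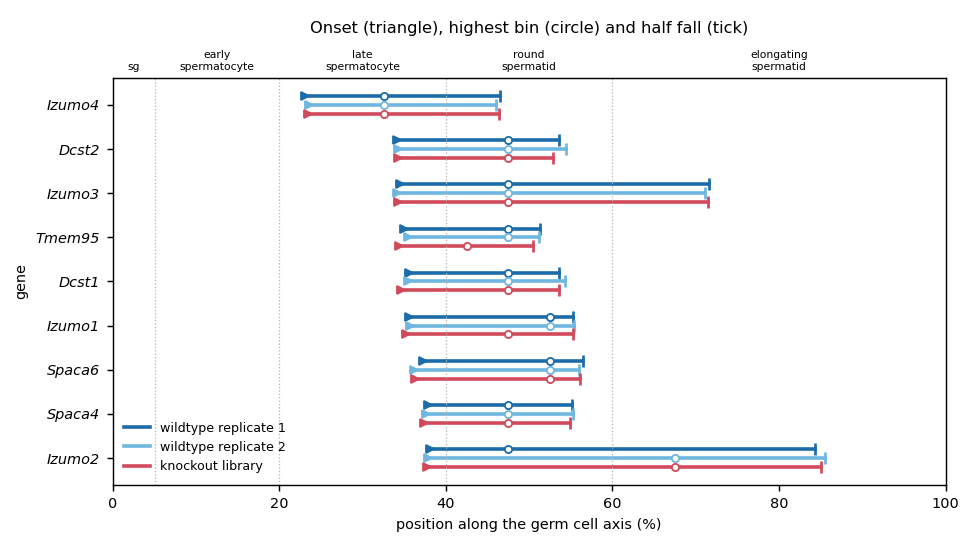
Onset (triangle), highest bin (circle) and fall to 50% of the highest bin (tick) of each gene along the germ cell axis (x axis, percent of ordered germ cells), with 1 line per library; dotted lines part the cell classes, and sg stands for spermatogonia. Genes are ordered from top to bottom by wildtype onset, from 23.27% for Izumo4 to 37.94% for Izumo2.

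The genes left at more widely spaced positions than those at which the 8 later ones started. Izumo4 had fallen to 50% of its highest bin at 46.25% ± 0.417, and Tmem95 followed at 51.27% ± 0.0849. Dcst1, Dcst2, Spaca4, Izumo1 and Spaca6 did so between 53.93% and 56.22%. Izumo3 lasted to 71.40% ± 0.325 and Izumo2 to 84.94% ± 0.849, deep in the elongating spermatids. The stretch from the 50% rise to the 50% fall covered 42.10% of the axis for Izumo2, 33.85% for Izumo3 and between 12.08% and 17.36% for the other 7 genes. In the last 3 bins Izumo2 still stood at 26.95% of its highest level in wildtype and 25.0% in the knockout library, while the other 8 genes stood between 3.67% and 9.925% in wildtype.

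For most genes the fall lay between 2 neighbouring bins. From bin 11 to bin 12, Spaca4 went from 1020.0, 994.0 and 894.8 CPM to 142.7, 127.6 and 113.7 CPM, and Izumo1 from 244.7, 254.0 and 240.1 to 25.2, 29.28 and 25.57 CPM. Of the 8 members with at least 20 CPM in bin 11 of every library, 6 were at least 2-fold lower in bin 12 in all libraries (Izumo1, Izumo4, Spaca4, Spaca6, Dcst1 and Dcst2). Among all genes with that level, 35.3% were. Izumo2 and Izumo3 changed by at most 0.243 on the log2 scale at this step. The median UMI total per cell fell at the same step, from 33303 to 13968, 26742 to 13875 and 45675 to 24246 in the 3 libraries. Its part in the fall was not tested. Because CPM are shares, a lower value can be less RNA of the gene or more RNA of others.

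Onset between 30% and 45% of the axis was a feature of 12.9% of the 10765 genes with at least 20 CPM in their highest bin in both wildtype libraries, and 17.4% had their highest bin in a round spermatid bin in all 3 libraries. A list of 34 other genes of sperm-egg interaction was followed in the same way, and 32 of them reached 20 CPM. Of these, 16 started before 34.17%, 11 within the range of the 8 later members and 4 after it, and Cd46, an acrosomal membrane protein, gave no onset because it did not stay above 20% for 2 successive bins. The median onset was 34.15% for the list and 35.47% for the 9 members. The earliest were Tex101 at 3.774%, Ly6k at 5.213% and Clgn, a chaperone of the endoplasmic reticulum, at 12.91%. The latest were Prss37 at 48.66%, Calr3, a testis form of calreticulin, at 48.02%, and Tmem81, a partner of IZUMO1 and SPACA6, at 42.34%. Tmem81 started at 42.57%, 42.11% and 40.54% in the 3 libraries, later than Izumo1 and Spaca6 in each of them. The lag behind Spaca6 depended on the threshold. The rise to 50% of the highest bin lay at 44.42%, 44.32% and 43.86% for Tmem81. For Spaca6 it lay at 43.89%, 44.38% and 43.4%, so Spaca6 was the later gene in wildtype replicate 2. For Izumo1 it lay at 42.18%, 42.49% and 40.31%, earlier than for Tmem81 in each library.

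The genes with the most alike profile were ranked by Pearson r of log2(CPM + 1) over the 20 bins, taking for each gene the lowest r of the 3 libraries, among 10587 genes, as a description. For Izumo1 they were Kcne3 (0.9684), 1700061G19Rik and 4930558C23Rik, and for Izumo2 Allc (0.9941), Gpd2 and 1700013G24Rik. For Izumo3 they were Far1os (0.9795), Gm49048 and 1700099I09Rik, for Izumo4 Mzt2 (0.9757), Ccdc60 and Zpbp, and for Spaca4 Spata46 (0.9907), 4933416O17Rik and 1700067P10Rik. Spaca6 had Arrdc5 (0.9677), Best1 and Cast, Tmem95 had Spam1 (0.9327), Efcab12 and Adam39, Dcst1 had 4932411K12Rik (0.9248), Triml1 and Tgif2lx1, and Dcst2 had 4930558C23Rik (0.9456), Krt88 and Fndc11. Among the members themselves the most alike pair was Izumo1 and Spaca4 (0.954), followed by Izumo1 and Spaca6 (0.934). The least alike pair was Izumo2 and Izumo4 (-0.444). Bins share libraries and depth, so that no p-value belongs to these values.

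How much cells of 1 stage differ was measured by the Fano factor, the variance of a gene's UMIs between cells divided by their mean, which is 1 for pure counting error. Each cell was first thinned to 2000 UMIs, which left out 32, 24 and 6 round spermatids and kept 527, 881 and 705. The median Fano factor of the 9 genes was 1.06 ± 0.032 (SD, n = 2), the same as the median over 4378 genes (1.06). Spaca4, the member with the highest mean, had Fano factors of 1.42, 1.31 and 1.45 in the 3 libraries. It was the only 1 of the 9 members at or above 1.2 in both wildtype libraries, a level that 9.46% of genes reached, and a Fano factor grows with the mean. A Spaca4 UMI was found in 69.1%, 70.5% and 66.0% of round spermatids, against 78.3%, 77.1% and 74.7% for a Poisson count of the same mean. In peritubular myoid cells, which should lack Spaca4, the share was 10.9%, 10.2% and 4.65% at the same 2000 UMIs. Whether free RNA or remaining doublets gave this background was not tested, nor was its part in the spread. The median UMI totals before thinning were 28169, 23235 and 39008 in round spermatids and 6006, 5275 and 7252 in myoid cells. In elongating spermatids Izumo2 (1.40, 1.33 and 1.33) and Izumo3 (1.27, 1.27 and 1.25) reached 1.2 in both wildtype libraries, against 16.2% of genes. Both genes decline through that class. No member reached 1.2 in both wildtype libraries in spermatogonia (0 of 2 measured), early spermatocytes (0 of 4) or late spermatocytes (0 of 4), against 2.8%, 5.83% and 7.94% of genes.

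Since 2000 UMIs leave few counts per gene, deeper thinning was added after the data were seen. At 20000 UMIs per cell, which left 407, 565 and 595 round spermatids and dropped 152, 340 and 116, Spaca4 had Fano factors of 4.69, 3.81 and 4.87 at a mean of 16.3, 16.2 and 14.7 UMIs. The coefficient of variation beyond counting error, which does not grow with depth, was 0.446 ± 0.0428 (SD, n = 2) for Spaca4 and 0.217 ± 0.0397 for Izumo3, the most even member. It was 0.311 ± 0.00937 for Izumo2, 0.444 ± 0.0433 for Izumo1, 0.567 ± 0.0754 for Izumo4, 0.448 ± 0.0368 for Spaca6 and 0.630 ± 0.0856 for Tmem95. The median over 3114 genes with at least 1 UMI per cell was 0.412. A value as large as that of Izumo3 was found in 87.5% of these genes, one as large as that of Spaca4 in 43.1% and one as large as that of Tmem95 in 19.0%. Dcst1 and Dcst2 had under 1 UMI per cell, and their coefficients of 0.513 ± 0.262 and 0.276 ± 0.39 carry SDs too large for an order.

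A named class spans several bins, in which most members rise and fall, and among bins 8 to 12 the coefficient of Spaca4 was smallest in bin 10, where its level was highest in each library. Within single bins, with cells thinned to 10000 UMIs, the Fano factor of Spaca4 in bin 10 was 1.10 and 1.21 in the wildtype libraries, with a mean of 10.9 and 10.1 UMIs per cell, and the coefficient of variation beyond counting was 0.0935 and 0.146. It was larger while the gene rose (0.332 and 0.326 in bin 9) and fell (0.72 and 0.602 in bin 12). In bin 11, where the means were still 10.4 and 10.0 UMIs, it was 0.272 and 0.225, so the low spread was that of bin 10 and not of both bins of high level. In the knockout library Spaca4 had a Fano factor of 1.71 in bin 10 and a coefficient of 0.256, above both wildtype values. Among bins 8 to 12, its Fano factor was also above both wildtype values in bin 8 (1.38, 1.28 and 1.63) and bin 9 (1.53, 1.58 and 1.68). It lay between them in bin 11 (1.77, 1.51 and 1.69) and below both in bin 12 (1.64, 1.43 and 1.31). Izumo2 in bin 10 gave 1.18, 1.18 and 1.37 and Izumo3 1.03, 1.15 and 1.21 in the 3 libraries. In bin 7 the knockout value was above both wildtype values for Izumo2 (1.11, 1.07 and 2.42), Izumo3 (1.42, 1.53 and 2.01) and Izumo4 (1.34, 1.59 and 1.93). For Izumo4 it was below both in bin 8 (1.24, 0.966 and 0.865) and bin 9 (1.17, 1.13 and 1.03). These Fano factors carry no interval, and the share of all genes with the knockout value above both is not given here. At that depth an Izumo3 UMI was found in 99.2% and 98.6% of the wildtype cells of bin 10, against 99.1% and 98.9% for a Poisson count.

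**Figure D3:**
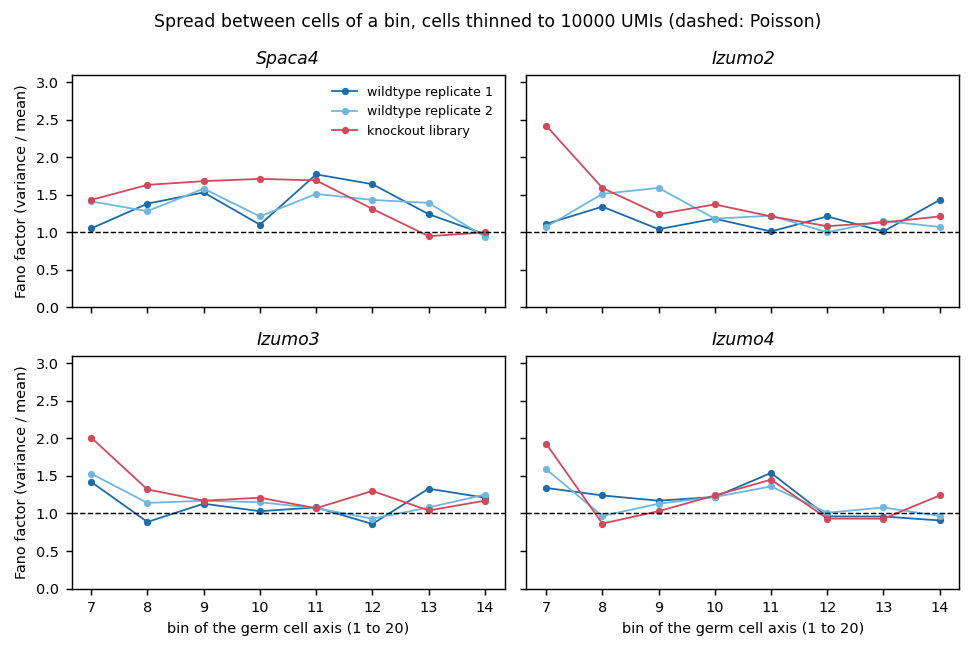
Fano factor (y axis, variance over mean of UMIs per cell) of Spaca4, Izumo2, Izumo3 and Izumo4 in bins 7 to 14 of the germ cell axis (x axis) after each cell was thinned to 10000 UMIs; points are libraries and the dashed line is the value of pure counting. In bin 10 the wildtype values of Spaca4 (1.10 and 1.21) lie near the line, and that of the knockout library (1.71) lies above them. In bin 7 the knockout values of Izumo2 (2.42), Izumo3 (2.01) and Izumo4 (1.93) are above both wildtype values. For Izumo4 they are below both in bins 8 and 9. The knockout value of Spaca4 is also above both in bin 8 (1.38, 1.28 and 1.63) and bin 9 (1.53, 1.58 and 1.68). It lies between them in bin 11 (1.77, 1.51 and 1.69) and below both in bin 12 (1.64, 1.43 and 1.31).

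Most round spermatids with at least 20000 UMIs carried RNA of most of the 9 genes at once. The 152, 340 and 116 cells below that depth were not counted. In bin 12, where most members had fallen, the median cell held 13968, 13875 and 24246 UMIs, so late round spermatids of the wildtype libraries are underrepresented. At 20000 UMIs per cell the median cell held UMIs of 7, 8 and 7 of the 9 genes in the 3 libraries, with a range from 3 to 9. All 9 were found in 11.8%, 16.8% and 12.9% of the cells. In the few spermatogonia of that depth (18, 15 and 52 cells) the median was 1 gene, with at most 4 and 3 in the wildtype libraries, while 1.92% of those of the knockout library held all 9. Cells without a UMI of Dcst1 or Dcst2, with mean counts of at most 0.758, cannot be told from cells that express them at a low level.

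Between genotypes no member passed the size rule in any of the 5 germ cell classes. The rule asked for at least a 2-fold difference between the knockout library and each wildtype library in the same direction, for at least 20 CPM in 1 library, and for a difference at least 2 times as large as that between the wildtype libraries, with 1 CPM added before each ratio. In round spermatids, where all 9 genes were measured at that level, 1.15% of 5495 genes passed, and 0 of the 9 members and 0 of 30 listed genes of sperm-egg interaction did. The share of genes past the rule was 0.366% for spermatogonia and 0.243% for early spermatocytes. It was 0.686% for late spermatocytes and 1.41% for elongating spermatids, again with 0 members among the 3 or 4 that reached the level. In peritubular myoid cells it was 2.46%, with 0 of 6 members. The median log2 ratio of the 9 members in round spermatids was -0.0491, and that of all genes tested was -0.0402.

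**Figure D4:**
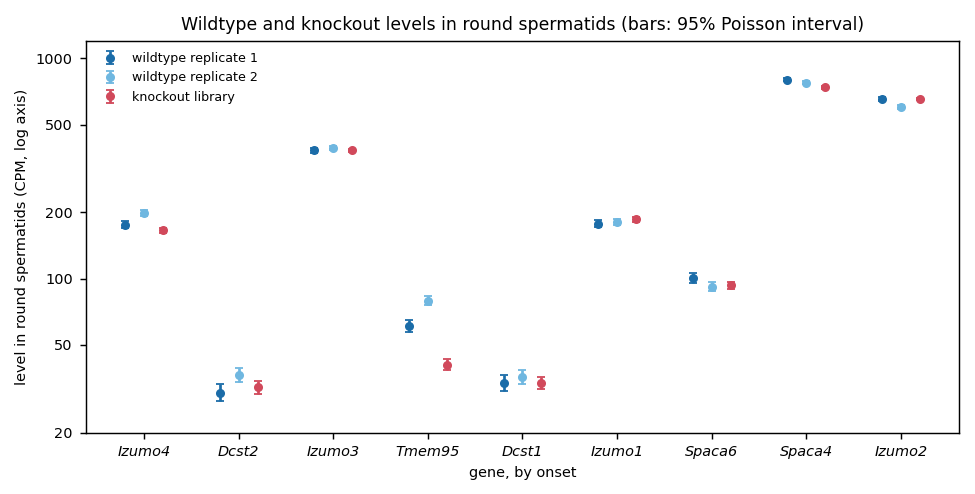
Level of each gene in round spermatids (y axis, CPM on a log axis) in the wildtype libraries (blue) and the knockout library (red), with 95% Poisson intervals of the UMI count; genes are in order of onset. Tmem95 (60.85, 79.24 and 40.58 CPM) is the gene with the widest gap between the knockout library and both wildtype libraries.

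Tmem95 came nearest. In round spermatids it stood at 60.85 CPM (95% Poisson interval 57.1 to 64.78) in wildtype replicate 1, 79.24 (75.53 to 83.08) in wildtype replicate 2 and 40.58 (38.31 to 42.95) for the knockout. That last level is 57.9% of the mean of both wildtype libraries, with log2 ratios of -0.57 and -0.95 against the wildtype libraries, and the wildtype libraries differed by 0.375. The intervals cover counting error only. In bins 1 to 7 the gene had at most 16 UMIs per bin and library. In bin 8 the libraries held 38.77, 37.85 and 38.46 CPM, in bin 10 they held 96.24, 113.7 and 64.58, and in bin 11 they held 33.36, 37.09 and 17.4. The knockout library was below both wildtype libraries in 3 of the 4 bins in which the gene was at 20% or more of its highest level. In elongating spermatids Tmem95 stood at 7.403, 8.876 and 3.272 CPM, which is under the level tested.

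The other 8 genes differed less between the libraries. In round spermatids Izumo1 stood at 177.0, 181.0 and 186.2 CPM, Izumo3 at 382.0, 390.9 and 381.2, and Spaca6 at 100.6, 91.86 and 92.99 in the 3 libraries. Izumo2 stood at 652.2, 599.7 and 652.8 CPM and Spaca4 at 798.7, 772.6 and 736.7. Izumo4 stood at 175.3, 198.3 and 165.6 CPM, Dcst1 at 33.5, 35.71 and 33.63, and Dcst2 at 30.39, 36.45 and 32.06. The largest of these differences from the wildtype mean, for Izumo4, was -0.17 on the log2 scale, against -0.77 for Tmem95. No member had the knockout library below both wildtype libraries, or above both, in every bin at 20% or more of its highest level, a pattern found in 5.78% and 4.6% of 10980 genes. With 1 pooled knockout library, differences of this size cannot be told apart from differences between mice.

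The clusters with few UMIs also held spermatid RNA, and in them some of the 9 genes took larger shares of the UMIs than in any germ cell bin. In cluster 15, whose median cell held 2384, 2150 and 3117 UMIs, Dcst1 stood at 184.7, 198.4 and 179.1 CPM in the 3 libraries. In cluster 5, with Spam1, Pdilt and Zp3r among its leading genes, Dcst2 stood at 157.0, 157.2 and 170.8 CPM. Of the 14 such clusters, the 12 with at least 50 cells in every library were compared. There 5 of the 9 genes (Izumo1, Izumo3, Spaca6, Dcst1 and Dcst2) stood above their highest germ cell bin in all 3 libraries in at least 1 cluster, with the lower Poisson bound above it, and 13.2% of 10765 genes did. Izumo2 stayed under its highest germ cell bin in the 12 compared clusters, with ratios of at most 0.812, 0.788 and 0.721. Spaca4 lay between 0.655 and 1.03 times its highest bin in clusters 5, 15 and 24. What these barcodes are was not tested.

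**Figure D5:**
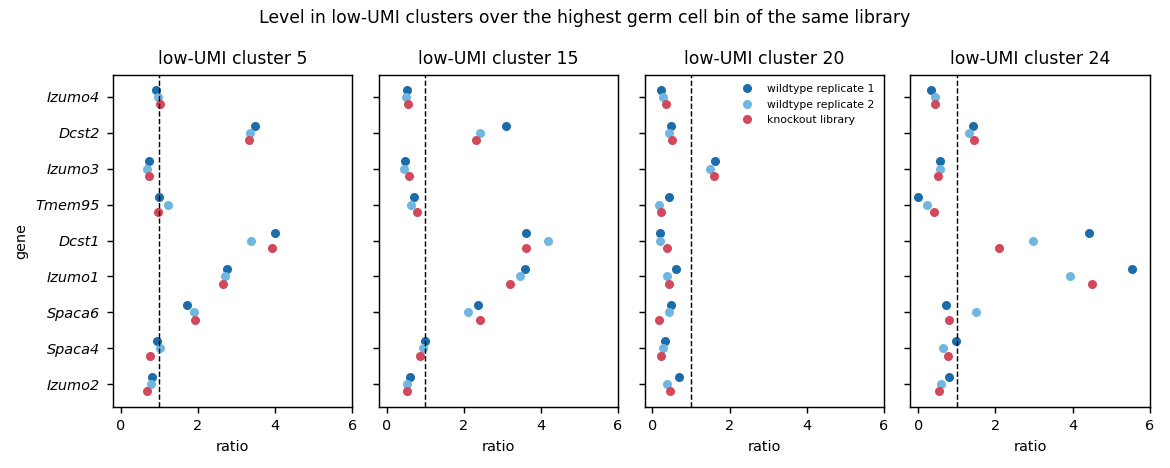
Level of each gene in 4 low-UMI clusters divided by its highest germ cell bin in the same library (x axis, ratio on a linear axis), with genes on the y axis, 1 point per library and a dashed line at 1. Izumo1 in cluster 24 (5.53, 3.94 and 4.5) and Dcst1 in cluster 15 (3.62, 4.19 and 3.62) lie far above 1, and Izumo2 stays below 1.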

How the data were processed

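The authors deposited raw UMI counts per gene and barcode for each library; Cell Ranger 4.0.0, Seurat 4.0.5 and the mm10 build are named in the submitters' processing notes, and whether counting used strand is not given in the sources used here. From these counts, barcodes with at least 1000 UMIs, 500 genes and at most 10% mitochondrial UMIs were kept (8134, 8337 and 12014). Scrublet's own threshold marked 0, 1 and 0 barcodes, so the 8% with the highest doublet score in each library were left out, leaving 7461, 7666 and 10950. Cells were clustered with scanpy 1.11.5 (2000 variable genes without the members and listed genes, 30 components, 15 neighbours, Leiden resolution 1; 29 clusters). Clusters were named from markers of 13 cell types, so class names mean "-like"; 14 low-UMI clusters were held apart. UMIs were summed per library and class or bin and scaled to 1000000 (CPM). Thinning drew UMIs from each cell without replacement. Shares of cells have exact Clopper-Pearson 95% intervals, and intervals cover counting error only.

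The members and gene lists were chosen with earlier results of these data known. All 9 members are named in every comparison. Of the listed genes, the 3 earliest and 3 latest are named, and for each member the 3 genes with the highest r. Onset thresholds, bin number, scaling, doublet filter, thinning and size rule were varied and each wildtype library was left out in turn. The steps were tested on simulated data. With 1 knockout library of pooled mice no p-value was computed, and wildtype SDs (n = 2) include differences between mice.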

Additional observations from a re-analysis of the deposited data

Results flagged for a closer look

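The comparisons did not use the clusters of barcodes with few UMIs. Of the 9 genes, 5 stood above their highest germ cell bin in all 3 libraries in at least 1 of clusters 5, 15, 20 and 24. No cluster held all 5, and Izumo3 was above that bin in cluster 20 only. By the same rule over 12 clusters, 13.2% of 10765 genes did. Each gene is given in the cluster where the lowest of its 3 library ratios to that bin was largest. The ratio of Izumo1 in cluster 24 was 5.53, 3.94 and 4.5 (wildtype replicate 1, then replicate 2, then the knockout library, an order kept below), from 210, 114 and 149 UMIs. Izumo3 in cluster 20, led by Calr3 and Prss37, gave 1.62, 1.49 and 1.59, from 149, 69 and 408 UMIs. Spaca6 in cluster 15 gave 2.36, 2.11 and 2.43, from 254, 150 and 267 UMIs. Dcst1 in the same cluster gave 3.62, 4.19 and 3.62, from 141, 100 and 151 UMIs. Dcst2 in cluster 5 gave 3.47, 3.35 and 3.32, from 151, 100 and 173 UMIs. Izumo1, Spaca6, Dcst1 and Dcst2 were above their highest germ cell bin in both cluster 5 and cluster 15 in all 3 libraries. Acrv1, an acrosomal protein gene, was also raised there, with 2.84, 2.65 and 2.74 in cluster 5 and 3.27, 2.83 and 3.02 in cluster 15. It gave 2.36, 1.98 and 1.94 in cluster 24, and 0.214, 0.13 and 0.13 in cluster 20. Spam1 gave 3.83, 3.73 and 3.69 in cluster 5 and 2.11, 1.31 and 2.11 in cluster 15. Its ratios were 0.175, 0.192 and 0.123 in cluster 24 and 0.247, 0.36 and 0.19 in cluster 20. Prm1 and Tnp1, markers of elongating spermatids, were not raised, with ratios between 0.0879 and 0.28 in clusters 5, 15, 20 and 24.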

How the results depend on the processing

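The number of gene pairs ordered alike, 33 of 36 in the main setting, depended on the setting. It went from 25 with 10 bins to 35 with the lowest early level subtracted as free RNA, a setting added after seeing the data. This number includes the pairs with Izumo4, whose gap to Dcst2 was 11.1, 10.7 and 10.9 points in the main setting. It therefore says less about the order among the 8 later genes. The positions themselves moved: all 9 onsets moved by more than the wildtype SD with size factors and without the doublet filter. The median Fano factor of the 9 members in round spermatids, 1.06 at 2000 UMIs, was 1.21 at 5000 UMIs, 3.18 without thinning, 1.03 within axis bins and 1.03 without the doublet filter. With settings added after seeing the data it was 1.57 at 20000 UMIs and 1.1 in axis bins at 10000 UMIs. Leaving out 1 wildtype library gave 1.04 to 1.08. A Fano factor grows with the mean count, so these values are not on 1 scale. The count of members past the size rule was 0 under all alternatives run, 1.5-fold included. The log2 ratio of Tmem95 in round spermatids was -0.57 without wildtype replicate 2, -0.95 without wildtype replicate 1 and -0.59 with equal weights of axis bins, against -0.77. No paired analysis was possible because the knockout group has 1 library. Depth limits Dcst1 and Dcst2 most, with under 1 UMI per round spermatid at 20000 UMIs.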
